A study of Mus musculus with 7 samples.

Results

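The centromere-proximal 3 Mb of the mouse autosomes were examined for trimethylation of histone H3 at lysine 9 (H3K9me3). They were taken by position alone, as the 10 kb windows from base 3000001 to base 6000000 of chromosomes 1 to 19 in the build mm10. This gave 300 windows on each of 19 chromosomes, 5700 of the 240366 autosomal windows. Before base 3000001 the 3 tracks hold almost no signal, and distances below are counted from it.

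The ChIP-seq part of the study holds 3 libraries of hippocampus from wild-type (WT) C57BL/6 mice that were 3 months old. One library came from the home cage. The other 2, replicates 1 and 2, came from mice kept for 24 h in a larger cage with toys and a running wheel and then for 1 week in the home cage again, which asks whether the mark differs at 1 week after that experience. All mice were perfused with fixative before the hippocampus was taken, and the mark was pulled down with 1 Diagenode antibody. The labels do not say whether the 2 enriched-cage replicates were separate mice, so a p-value measures the spread between these libraries, which may be technical. Hippocampus is a mixture of cell types, and fewer cells with the mark cannot be told apart from less mark per cell. The tissue label could not be checked against marker transcripts, since these libraries hold no RNA, and no input library was used here.

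Mouse chromosomes are telocentric: the centromere sits at 1 end, built of minor satellite repeats, and is followed by long blocks of major satellite repeats and then by the first unique sequence. The satellite blocks are constitutive heterochromatin, in which the enzymes SUV39H1 and SUV39H2 trimethylate H3K9 and HP1 proteins bind the mark. H3K9me3 also covers clusters of zinc finger genes and many transposable elements, where SETDB1 is recruited by KRAB zinc finger proteins and TRIM28. The regions described here lie next to the satellite blocks and hold genes.

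Sequences of promoters with unlike signal inside these regions are printed: 4 with a raised level and 1 from a chromosome end with almost none. They were chosen after their values were seen and come from RefSeq on the assembly GRCm38.p6, the assembly of mm10, from 250 bases before to 50 bases after the annotated start, written 5′ to 3′ on the strand of the gene. In the first 4, capitals mark every CpG, the dinucleotide that DNA methylation acts on. In the fifth, capitals mark the 299 consecutive bases that it shares with the promoter of Gm3050, which lies 239394 bases away on the same chromosome.
LOC115490388 (chr6:3182866-3183165, plus strand): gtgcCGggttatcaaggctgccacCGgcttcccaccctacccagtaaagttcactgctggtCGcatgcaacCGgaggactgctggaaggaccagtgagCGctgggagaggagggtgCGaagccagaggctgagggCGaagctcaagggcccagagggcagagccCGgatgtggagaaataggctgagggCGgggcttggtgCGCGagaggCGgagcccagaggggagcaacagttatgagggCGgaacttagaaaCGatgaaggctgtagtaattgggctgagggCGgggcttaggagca
Gm46840 (chr4:3230932-3231231, plus strand): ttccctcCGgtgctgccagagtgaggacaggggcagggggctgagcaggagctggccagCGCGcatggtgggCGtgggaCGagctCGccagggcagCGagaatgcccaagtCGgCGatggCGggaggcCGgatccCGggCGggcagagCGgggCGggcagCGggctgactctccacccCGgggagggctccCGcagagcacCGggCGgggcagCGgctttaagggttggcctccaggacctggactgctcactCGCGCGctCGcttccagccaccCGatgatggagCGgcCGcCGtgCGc
Cd209a (chr8:3748935-3749234, minus strand): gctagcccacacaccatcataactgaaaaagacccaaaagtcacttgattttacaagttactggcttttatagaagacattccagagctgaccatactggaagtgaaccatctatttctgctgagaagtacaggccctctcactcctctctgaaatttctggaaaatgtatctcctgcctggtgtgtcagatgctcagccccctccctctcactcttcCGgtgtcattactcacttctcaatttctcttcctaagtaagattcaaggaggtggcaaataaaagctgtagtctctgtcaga
Cd209d (chr8:3878450-3878749, minus strand): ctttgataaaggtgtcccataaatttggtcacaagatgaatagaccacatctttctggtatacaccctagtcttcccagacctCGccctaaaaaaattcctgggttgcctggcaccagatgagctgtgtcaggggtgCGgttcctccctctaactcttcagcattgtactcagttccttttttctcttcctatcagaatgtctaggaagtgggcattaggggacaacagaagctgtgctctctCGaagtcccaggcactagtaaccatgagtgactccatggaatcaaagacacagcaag
Gm2977 (chr14:3511552-3511851, plus strand): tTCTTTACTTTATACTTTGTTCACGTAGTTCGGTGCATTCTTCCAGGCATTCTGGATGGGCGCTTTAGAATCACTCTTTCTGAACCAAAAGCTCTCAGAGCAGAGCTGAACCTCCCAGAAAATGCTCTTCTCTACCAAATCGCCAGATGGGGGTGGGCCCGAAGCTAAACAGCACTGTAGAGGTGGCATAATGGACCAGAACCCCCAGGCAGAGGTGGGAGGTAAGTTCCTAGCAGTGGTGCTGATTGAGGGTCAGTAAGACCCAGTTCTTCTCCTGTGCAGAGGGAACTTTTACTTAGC
The lncRNA promoters LOC115490388 and Gm46840 hold 15 and 30 CpG. The Cd209a and Cd209d promoters hold 1 and 3. Of the 873 proximal promoters of this length in the table, 95.5% hold at least 1 CpG, 38.3% at least 15 and 11.5% at least 30, and over 30523 other autosomal promoters these shares are 94.7%, 35.1% and 12.1%. At most 3 CpG are found in 31.0% and 30.9%.

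The home cage library had 6188698 fragments. Enriched replicate 1 had 13017447 and replicate 2 had 8060241, and values are given in this order throughout. Signal is the mean coverage of a region divided by the library's own median over autosomal 10 kb windows, which were covered by 23, 48.3 and 31.5 fragments. Enriched replicate 2 had the least contrast: 4.42%, 4.30% and 1.81% of all autosomal windows exceeded 2 times the median. As a check of the mark, 467 zinc finger genes outside the proximal regions had a mean signal of 1.43, 1.52 and 1.37, and 10 housekeeping genes had 0.573, 0.641 and 0.755. The median zinc finger gene stood at 0.955, 0.985 and 1.04, close to the median of all genes outside the proximal regions (0.926, 0.952 and 0.982), so the higher mean comes from part of the genes.

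As a whole, the proximal 3 Mb carried about as much H3K9me3 as the rest of the autosomes, but more unevenly. The mean signal was 1.13 (95% Poisson interval 1.12 to 1.13), 1.14 (1.13 to 1.14) and 1.02 (1.02 to 1.03), against 1.08, 1.08 and 1.03 over the remaining autosomal windows. These and all following intervals cover counting error only. On the log2 scale the proximal set stood 0.06 and 0.07 above the rest in the home cage library and enriched replicate 1 and -0.02 in enriched replicate 2. It was higher in 2 of 3 libraries, and a two-sided exact sign-flip permutation test over libraries gave p = 0.5, where 0.25 is the smallest p that 3 libraries allow. The medians, at 0.987, 0.978 and 0.969, were just under those of the rest, which were 1.00 in each library.

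Both ends of the distribution were fuller than elsewhere. Windows above 2 times the median made up 6.93%, 7.74% and 2.54% of the proximal windows and 4.36%, 4.22% and 1.79% of the others. A window with no fragment allows up to 3, which is 0.130, 0.0622 and 0.0953 of the library median. Such windows made up 4.37%, 3.86% and 4.44% of the proximal windows and 0.877%, 0.739% and 0.851% of the others. The 10 proximal windows with the highest mean over the libraries held 5.11%, 4.62% and 4.14% of the proximal fragments. The last 3 Mb of the same chromosomes, at the telomeric end, had means of 1.08, 1.09 and 1.05.

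The chromosomes differed far more than the libraries did. By mean signal chromosome 11 came first with 1.76 (1.73 to 1.79), 1.74 (1.72 to 1.76) and 1.59 (1.56 to 1.61). Chromosome 3 followed with 1.66, 1.74 and 1.29, and chromosome 9 with 1.62, 1.53 and 1.30. The intervals of chromosomes 11 and 3 overlapped in enriched replicate 1, and those of chromosomes 3 and 9 overlapped in the home cage library and in enriched replicate 2. Among the 793 autosomal segments of 3 Mb, these 3 chromosome starts ranked between the 96.5th and the 99.6th percentile in all 3 libraries. Chromosomes 8, 13 and 1 came next with 1.35, 1.37 and 1.13, with 1.31, 1.30 and 1.09, and with 1.22, 1.24 and 1.08.

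Chromosome 14 was at the other extreme, with 0.0470 (0.0420 to 0.0524), 0.0430 (0.0397 to 0.0466) and 0.0370 (0.0332 to 0.0411), the lowest of all 793 segments in each library. Next lowest was chromosome 19 with 0.840, 0.890 and 0.917, the 2.33rd, 3.34th and 8.64th percentile. The proximal 3 Mb had a higher mean than the remainder of the same chromosome in all 3 libraries on 9 chromosomes (1, 3, 4, 8, 9, 11, 13, 16 and 18). They had a lower mean in all 3 on 8 (2, 5, 6, 10, 12, 14, 17 and 19), and on 2 (7 and 15) the libraries differed in sign. The order was much the same between libraries: across the 19 chromosomes, which share library and scaling, Pearson's r was 0.994 for the home cage library with enriched replicate 1 and 0.960 with enriched replicate 2, and without chromosome 14 it was 0.988 and 0.937.

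**Figure D1:**
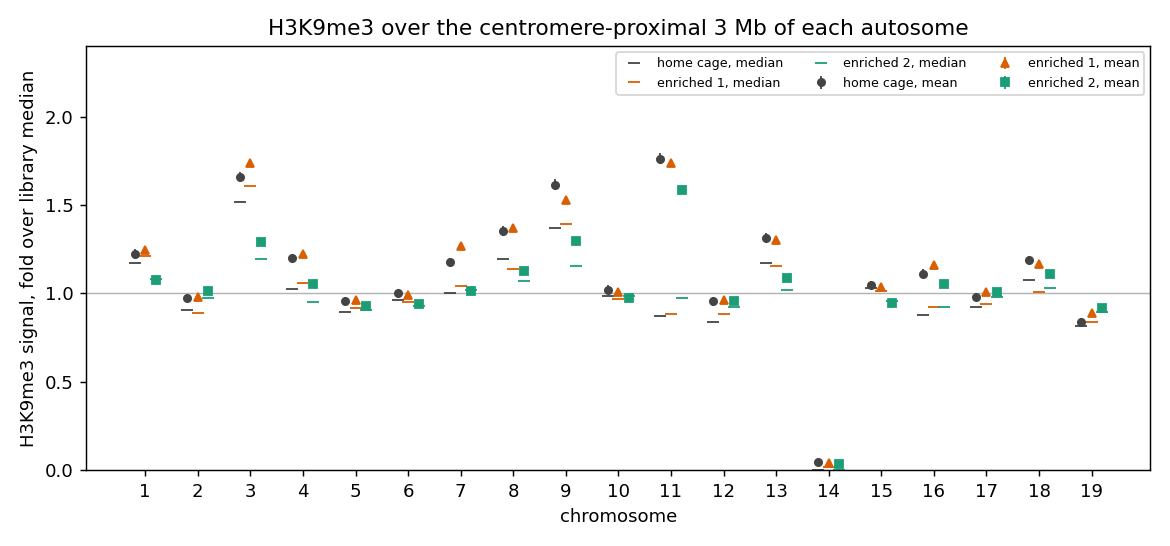
Mean (symbols, with 95% Poisson intervals) and median (dashes) H3K9me3 signal over the 300 proximal windows of each autosome, as fold over the library median, for the 3 libraries. Chromosomes 11, 3 and 9 have the highest means, chromosome 14 lies near 0, and on chromosome 11 the medians (0.874, 0.882 and 0.976) lie far below the means.

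Chromosomes 3 and 9 were high along much of the 3 Mb, and chromosome 11 over a short stretch. On chromosome 3 the median window stood at 1.52, 1.61 and 1.19, and 75, 78 and 22 of its 300 windows exceeded 2. On chromosome 9 the median was 1.37, 1.39 and 1.15, with 61, 60 and 20 windows above 2. On chromosome 11 the median was 0.874, 0.882 and 0.976, with 13, 14 and 11 windows above 2. By the median over windows chromosome 11 fell from rank 1 to rank 14 of 19, and with the windows above the 99th percentile of all autosomal windows left out it came to rank 15, while chromosome 3 took rank 1 both times.

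The stretch on chromosome 11 lies in Sfi1 (chr11:3131850-3203347), which encodes a centrin-binding protein of the centrosome. The window from base 3190001 to 3200000, inside the gene and over the pseudogene Fau-ps2, reached 137 (133 to 142), 138 (134 to 141) and 105 (101 to 108) times the library median, on 3162, 6643 and 3293 fragments. It ranked 2nd among all 240366 autosomal windows in each library. Its neighbour from base 3180001, also in Sfi1, reached 74.7, 72.3 and 53.8 and ranked 3rd in each library.

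Over Sfi1 as a whole the signal was 32.8, 32.3 and 24.4. The 5 windows from base 3150001 to 3200000 held 43.0%, 43.0% and 35.7% of all fragments of the chromosome's proximal 3 Mb, and without them its mean was 1.02, 1.01 and 1.04. The coverage was broad there: in the highest window the tallest base stood at 2.21, 2.04 and 2.30 times the window's mean. Of its fragments, 47, 128 and 39 lay on start positions used by more than 2 fragments. Whether reads from similar sequence elsewhere were placed here was not tested, since the handling of reads with several equally good positions is not given in the sources used here. A further window of chromosome 11, from base 3100001 and 14002 bases from the pseudogene Pisd-ps1, reached 20.8, 15.8 and 15.5. Of its 478, 760 and 486 fragments, 52, 75 and 40 lay on start positions used by more than 2 fragments. All proximal windows together held 15.7%, 23.8% and 11.95% of the autosomal fragments on such positions. They held 2.47%, 2.49% and 2.35% of all autosomal fragments.

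**Figure D2:**
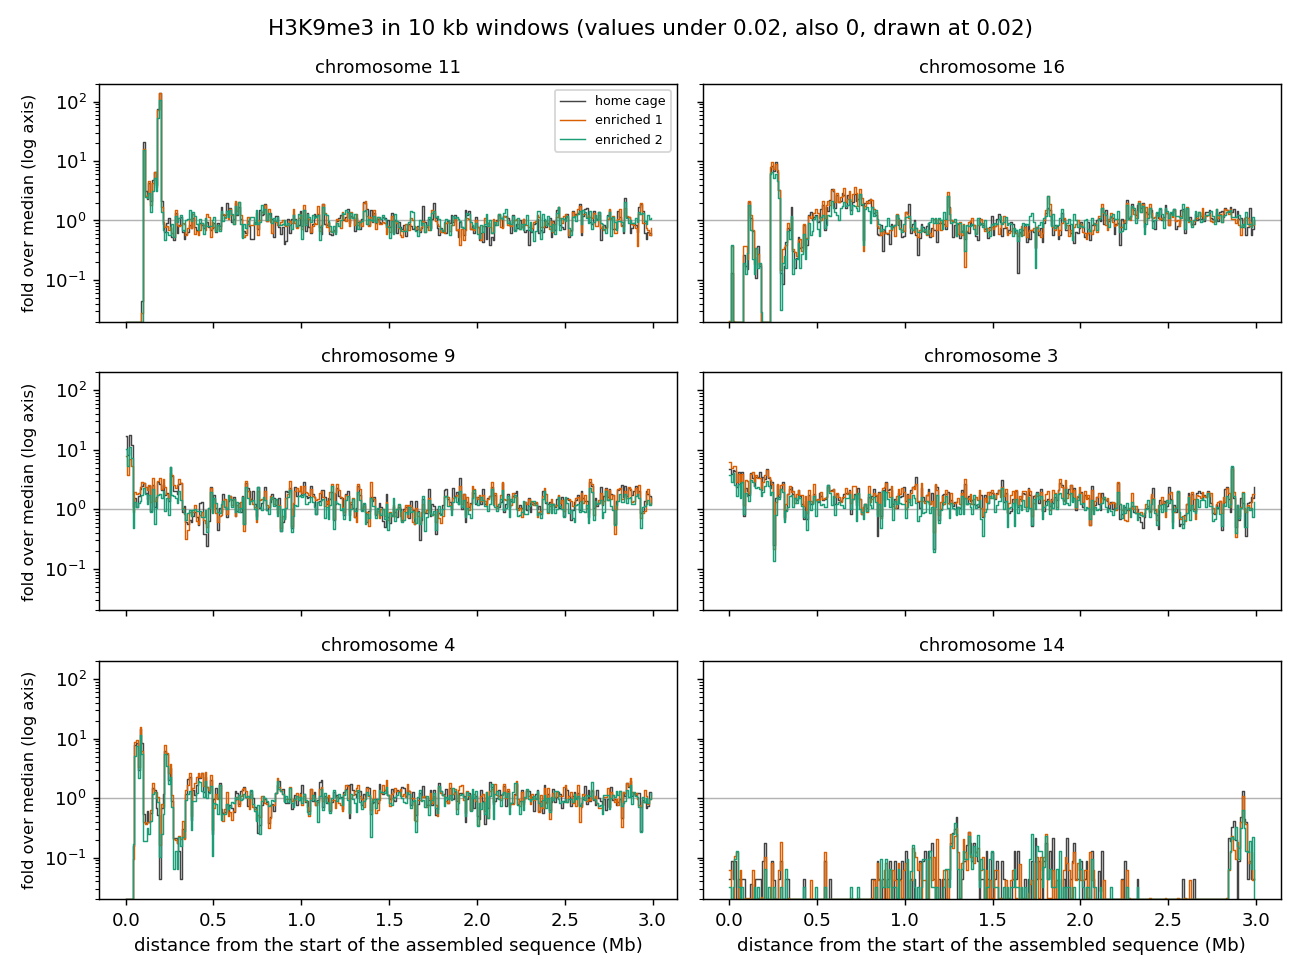
H3K9me3 signal of every proximal 10 kb window of chromosomes 11, 9, 4, 16, 3 and 14 in the 3 libraries, on a log axis as fold over the library median, against distance in Mb. Chromosomes 11, 9, 4 and 16 have peaks near the start, chromosomes 3 and 9 have medians above 1 in every library, and chromosome 14 is at or near 0 until the last part.

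Windows of very high signal were gathered close to the chromosome start. Joined into runs, the windows above 3 times the median in all 3 libraries made 22 runs of 39 windows on 13 chromosomes. They were 0.684% of the proximal windows and 0.238% of the other autosomal windows. Of the 22 runs, 17 began within the first 0.5 Mb and 8 within the first 0.1 Mb. Such windows made up 3.58% of the first 0.5 Mb and 0.105% of the following 2.5 Mb.

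On chromosomes 3, 9 and 18 a run began with the first bases of the track, and the runs of chromosomes 4 and 16 began further in. On chromosome 9 the first 40 kb stood at 13.6, 6.05 and 8.55. On chromosome 4 the 5 windows from base 3050001 to 3100000, near the pseudogene Vmn1r-ps2, had 8.51, 8.71 and 6.36 and hold 2 runs with 1 lower window between them. A further run of chromosome 4, from base 3220001 to 3240000, holds the start of the lncRNA gene Gm46840 whose promoter is printed above and had 5.88, 6.84 and 4.56. On chromosome 16 a block of 5 windows from base 3230001 to 3280000, 21413 bases from the nearest gene Gm3749, had 7.51, 8.20 and 5.70.

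The first 40 kb of chromosome 9 contain the microRNA gene Mir101c. Its mature sequence, from RefSeq on GRCm38.p6 with the seed in capitals, is shown because it is the annotated product nearest to this block.
mmu-miR-101c (chr9:3038680-3038698, minus strand): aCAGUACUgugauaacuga
The highest windows of that block began at bases 3020001 and 3000001, with 17.6, 6.96 and 11.2 and with 16.8, 7.98 and 10.3. Here, unlike over Sfi1, enriched replicate 1 was the lowest library.

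The high windows were of different shapes. On chromosome 3 the highest window by the mean of the libraries, from base 5860001, reached 5.22, 4.77 and 5.44 with its tallest base at 25.7, 30.3 and 26.8 times the window's mean, so the signal sat in a narrow spot. On chromosome 2 the window from base 3050001 reached 6.42, 5.98 and 4.51 with a tallest base at 17.1, 21.1 and 21.3 times the mean. A window of chromosome 13 from base 3370001, 7711 bases from Gm16505, reached 11.7, 9.75 and 7.47 with 13.3, 13.7 and 16.1 times. The first 10 kb of chromosome 18, 16901 bases from the vomeronasal receptor pseudogene Vmn1r-ps151, stood at 18.2, 14.1 and 13.1, with 9.07, 12.6 and 11.8 times. Of the 418, 679 and 412 fragments there, 53, 98 and 66 lay on start positions used by more than 2 fragments. The windows of chromosome 16 from base 3240001 (8.32, 9.77 and 6.65) and of chromosome 17 from base 3030001 (5.36, 5.84 and 4.22) were broad, with tallest bases at 2.94, 2.97 and 4.42 and at 2.85, 3.25 and 3.79 times the mean.

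By distance, the first 0.5 Mb stood above the following 2.5 Mb in the mean over chromosomes, and much of that came from a few chromosomes. The mean over the 19 chromosomes was 1.52, 1.53 and 1.24 in the first 0.5 Mb and 1.05, 1.06 and 0.979 in the following 2.5 Mb, a log2 ratio of 0.53, 0.53 and 0.34. Without chromosome 11 the log2 ratio was 0.29, 0.29 and 0.12, and without chromosomes 11, 9 and 4 it was 0.17, 0.20 and 0.03. The median chromosome stood at 1.13, 1.19 and 0.986 in the first 0.5 Mb and at 1.05, 1.04 and 1.01 in the following 2.5 Mb, so in enriched replicate 2 the direction turned. The first 0.5 Mb was the higher on 13, 14 and 9 of 19 chromosomes. Taken over single windows, the first 0.5 Mb was lower, with a median window of 0.939, 0.944 and 0.922.

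The first 0.5 Mb was higher than the following 2.5 Mb in all 3 libraries on 8 chromosomes (3, 4, 9, 11, 12, 13, 17 and 18) and in none on 4 (1, 8, 14 and 15). On chromosome 3 the 2 values were 2.42 and 1.51, 2.63 and 1.56, and 1.79 and 1.19 in the 3 libraries. On chromosome 9 they were 2.60 and 1.42, 2.16 and 1.40, and 1.90 and 1.18. Chromosome 8 went the other way, with 0.986 and 1.43, 0.936 and 1.46, and 0.946 and 1.16.

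The mean over chromosomes was highest in the second 0.1 Mb, at 2.67, 2.70 and 2.02. That height rests largely on chromosome 11, which holds the Sfi1 run there and had 26.0, 25.2 and 19.5. The median chromosome of this bin stood at 1.42, 1.38 and 1.06. In the first 0.1 Mb, chromosomes 3, 4, 9 and 18 exceeded 2 in every library, chromosome 9 with 6.45, 3.60 and 4.15 and chromosome 4 with 4.27, 4.36 and 3.20. Chromosomes 10 and 11 had almost no fragments there. Low values were also found on chromosomes 14 (0.0391, 0.0414 and 0.0350), 16 (0.0565, 0.116 and 0.0699), 19 (0.137, 0.157 and 0.130) and 15 (0.196, 0.281 and 0.168). The median window of the first 0.1 Mb stood at 0.466, 0.570 and 0.350. Whether windows with few or no fragments hold undetermined bases was not tested, since no genome sequence was used here. Further along the chromosomes the profile was flat, near 1 from 1 to 9 Mb, with a second rise at 16 to 17 Mb to 1.35, 1.38 and 1.14, at or above the first 1 Mb (1.30, 1.31 and 1.11).

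**Figure D3:**
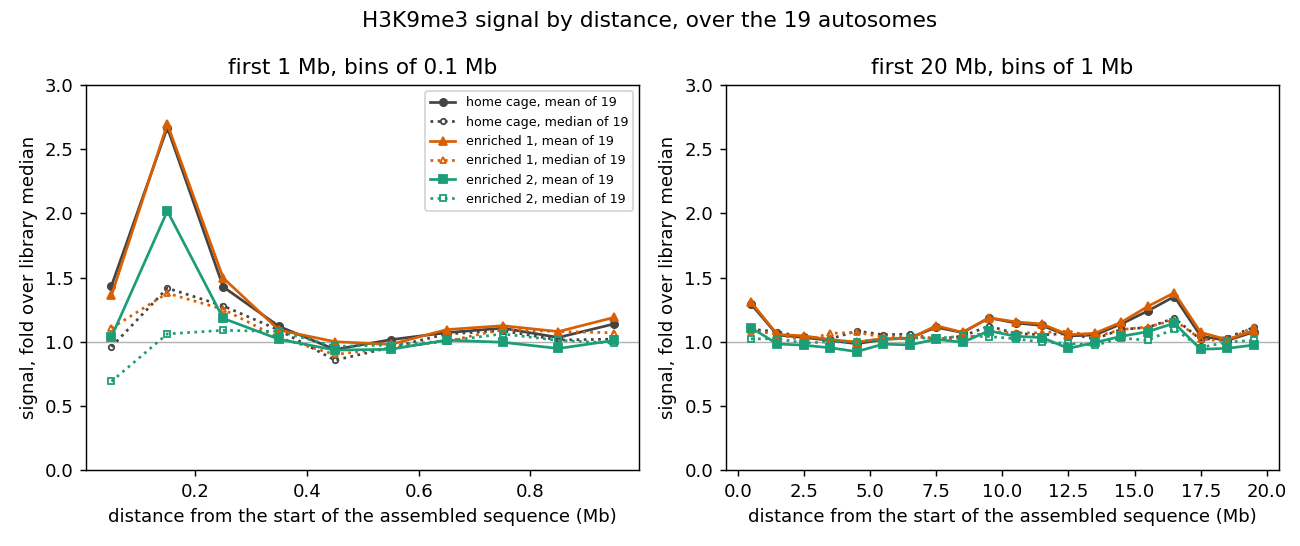
H3K9me3 signal over the 19 autosomes by distance from the start of the assembled sequence, in bins of 0.1 Mb (left) and 1 Mb (right). Filled symbols with solid lines are the mean and open symbols with dotted lines the median over chromosomes. The mean reaches 2.67, 2.70 and 2.02 in the second 0.1 Mb, above the median chromosome, and rises again at 16 to 17 Mb, to 1.35, 1.38 and 1.14.

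The start of chromosome 14 was nearly empty. Its 3 Mb held 324, 623 and 349 fragments, and 168, 145 and 175 of its 300 windows had none. Of the 180 proximal windows with no fragment in any library, 109 were on chromosome 14. The next 3 Mb of the chromosome had 0.450, 0.481 and 0.489, and the 3 Mb after those had 1.08, 1.09 and 1.05. The highest window, from base 5920001 near the far end and over Gm3248, reached 1.34, 1.07 and 0.636.

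This stretch holds 103 annotated genes, 97 of them predicted (Gm) genes, among the others 2610042L04Rik, listed under a takusan synonym, a family known for regulating synaptic activity (0.0836, 0.167 and 0.137). Most of its promoters share sequence with another promoter. Of 89 promoters, 84 (94.4%) shared at least 1 word of 50 bases with another promoter elsewhere, on either strand, and 42 shared more than 80% of their words. Over the proximal promoters of the other chromosomes 5.48% shared a word, and over all other autosomal promoters 6.49% did. The pair Gm2977, printed above, and Gm3050 had 0 fragments within 1000 bases of both promoters in all 3 libraries. Promoters without a fragment numbered 66, 56 and 68 of 89. How reads from such copies were placed is not given in the sources used here, and its part in the low coverage was not tested.

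In all, 1301 annotated genes overlapped the proximal regions, of 47042 on the autosomes, among them 610 protein-coding genes, 317 pseudogenes and 296 lncRNA genes. Over protein-coding genes that lie wholly inside, the median signal was 0.799, 0.832 and 0.892 (604 genes), against 0.873, 0.887 and 0.950 over 20055 others. Gene-rich starts had lower medians: across the 19 chromosomes, which share library and scaling, the number of genes and the median signal had Pearson's r of -0.445 and Spearman's rho of -0.640, and without chromosome 14 these were -0.514 and -0.614. Chromosome 3 held 20 genes, the fewest, and chromosome 19 held 172, the most.

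Zinc finger genes encode DNA-binding proteins, and those with a KRAB domain recruit H3K9 methylation to repeats. Of the 13 zinc finger genes in the proximal regions, 2 exceeded 2 in each library. Zfp263 on chromosome 16 (chr16:3744099-3750790) had 4.27, 5.22 and 4.04, and Zfp958 on chromosome 8 (chr8:4613170-4632572), whose window from base 4620001 was the highest of its chromosome, had 3.66, 4.04 and 3.23. The other 11 lay between 0.405 and 1.64. The group's median was 0.958, 0.850 and 1.09, beside 0.955, 0.985 and 1.04 over 467 zinc finger genes elsewhere on the autosomes. The signal over Zfp958 was in the body of the gene: within 1000 bases of its first annotated promoter it was 1.13, 0.541 and 0.691.

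The Cd209 cluster of chromosome 8, noticed after its values were seen, encodes C-type lectins of dendritic cells and macrophages, which bind sugars on pathogens. Cd209e (chr8:3847973-3854286) had 3.95, 3.64 and 1.88, Cd209b (chr8:3917655-3926841) had 3.27, 3.69 and 2.29, and Cd209a (chr8:3743395-3748984) had 2.51, 3.04 and 2.03. Cd209d (chr8:3871824-3878548) had 2.42, 3.92 and 2.64. Lower values were found over Cd209c (1.28, 2.09 and 1.13), Cd209f (1.22, 1.61 and 1.04) and Cd209g (0.721, 0.523 and 0.870), so the cluster was not uniform. Enriched replicate 2, which had the least contrast over the whole genome, was the lowest library over the genes a, b, c, e and f. Over Cd209d the home cage library was the lowest, and over Cd209g enriched replicate 1 was. The cause of these differences was not tested.

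**Figure D4:**
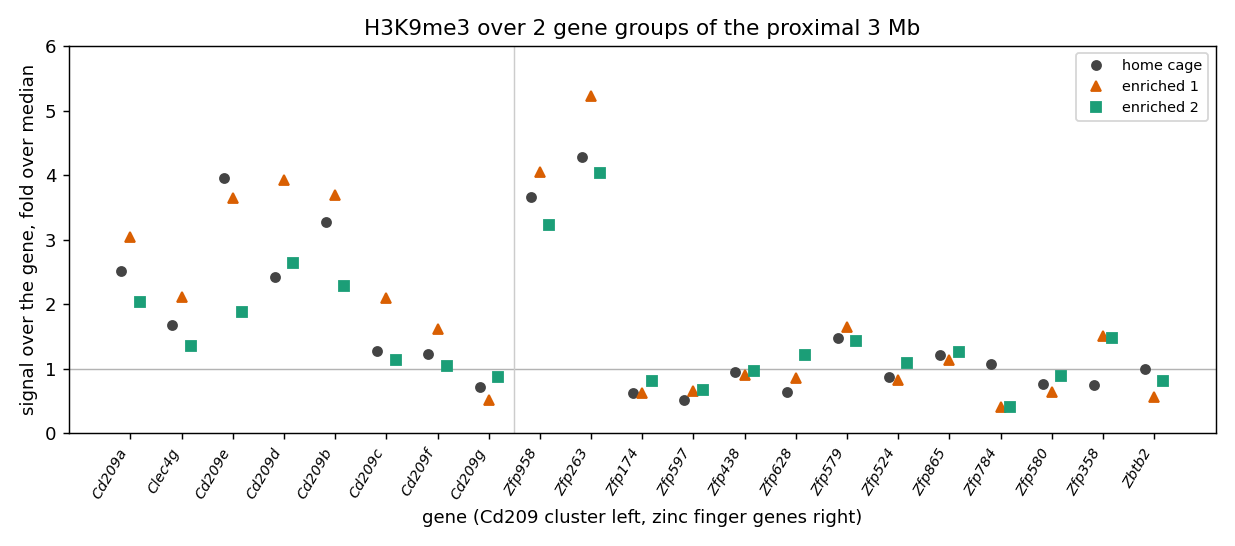
H3K9me3 signal over the Cd209 cluster with Clec4g, a lectin gene beside it (left), and over the 13 zinc finger genes (right) of the proximal regions, as fold over the library median, 1 symbol for each library. Zfp958 and Zfp263 lie above 3 in all libraries, and the other zinc finger genes lie below 1.7.

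Of other families, the 5 olfactory receptor genes and pseudogenes had a median of 2.51, 2.74 and 1.64, beside 1.54, 1.69 and 1.28 over 1415 elsewhere. The 33 vomeronasal receptor genes and pseudogenes had 0.463, 0.450 and 0.358, beside 1.13, 1.22 and 0.939 over 590 elsewhere, and 14, 9 and 13 of them had no fragment. These receptors are known from the nose, not from the hippocampus. The 2 Speer family pseudogenes, on chromosomes 13 and 7, had 2.02, 1.98 and 1.28 (Speer6-ps1) and 2.82, 2.84 and 1.68 (Speer9-ps1). The 508 predicted (Gm) genes outside chromosome 14 had medians of 1.01, 1.02 and 1.06, beside 1.01, 1.02 and 1.03 elsewhere. Sox17 on chromosome 1 (chr1:4490928-4497426), a transcription factor gene of endoderm and blood vessels, had 4.29, 4.98 and 3.19, in the highest window of its chromosome.

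The promoters of the proximal regions had a lower median signal than the others, as a description with no test. Their median, over the printed 300 bases and 1000 bases on each side, was 0.724, 0.797 and 0.829 (873 promoters of 690 genes), beside 0.872, 0.911 and 0.967 over 30523 other autosomal promoters, and without chromosome 14 it was 0.756, 0.837 and 0.904. In all 3 libraries 18 proximal promoters (2.06%) exceeded 2, beside 4.01% of the others. Alternative starts of a gene were counted apart, and the table holds no promoter of chromosome 18 in these regions.

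At the LOC115490388 promoter printed above, with its 1000 bases on each side, the signal was 17.0, 14.3 and 12.3 on 89.7, 158 and 89.4 fragments, the highest of all proximal promoters. Gm46840 followed with 7.07, 7.40 and 5.25, and Cd209a had 4.55, 4.42 and 2.89. Cd209d had 2.08, 5.13 and 2.37. These promoters, chosen after their values were seen, include some with many CpG and some with few. The CpG content of the highest promoters as a set was not examined. Across the 784 proximal promoters outside chromosome 14, which share the libraries and their base composition, the Spearman correlation between GC share and signal was -0.265, and over the other autosomal promoters it was -0.184.

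Between the cages, the 19 chromosome starts did not move together in both enriched-cage libraries. Relative to the home cage, enriched replicate 1 ranged from -0.13 to 0.11 on the log2 scale and enriched replicate 2 from -0.36 to 0.13. Both enriched-cage libraries lay above the home cage on 4 chromosomes (2, 12, 17 and 19), where 17.4% of all 793 segments did. Both lay below on 8 (6, 9, 10, 11, 13, 14, 15 and 18), where 40.0% of all segments did, and on 7 they lay on opposite sides. With each library scaled to its total, 5 were above and 7 below, and of all 793 segments 184 were above and 191 below. Enriched replicate 1 was above enriched replicate 2 on 17 of 19 chromosomes, as on 67.5% of all segments.

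Over the whole proximal set the enriched-cage libraries had a mean of 1.08 ± 0.0818 (SD, n = 2), against 1.13 in the home cage library. The difference of -0.0472 was smaller than the SD between the 2 enriched-cage libraries, and 1 of them lay above the home cage and 1 below. An exact two-sided permutation test over the 3 libraries gave p = 1, where 0.333 is the smallest p that 1 against 2 libraries allow.

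Fitted over all 793 segments with limma and voom weights, 80 segments (10.1%) passed an adjusted p of 0.05, all lower in the enriched cage, and 4 of the 19 chromosome starts were among them. These were chromosome 13 (log2 -0.26 ± 0.03, SE), chromosome 8 (-0.25 ± 0.04), chromosome 4 (-0.18 ± 0.03) and chromosome 1 (-0.18 ± 0.03), each with an adjusted p of 0.0487 by limma with Benjamini-Hochberg adjustment. The calls rest on enriched replicate 2, whose weight in the chromosome starts was 25.2 times that of enriched replicate 1. On chromosomes 1, 4 and 8 enriched replicate 1 lay above the home cage, by 0.03, 0.03 and 0.02, while enriched replicate 2 lay at -0.18, -0.18 and -0.26. Without the weights (limma-trend) none of the 793 segments passed, and 0 had an unadjusted p under 0.05.

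**Figure D5:**
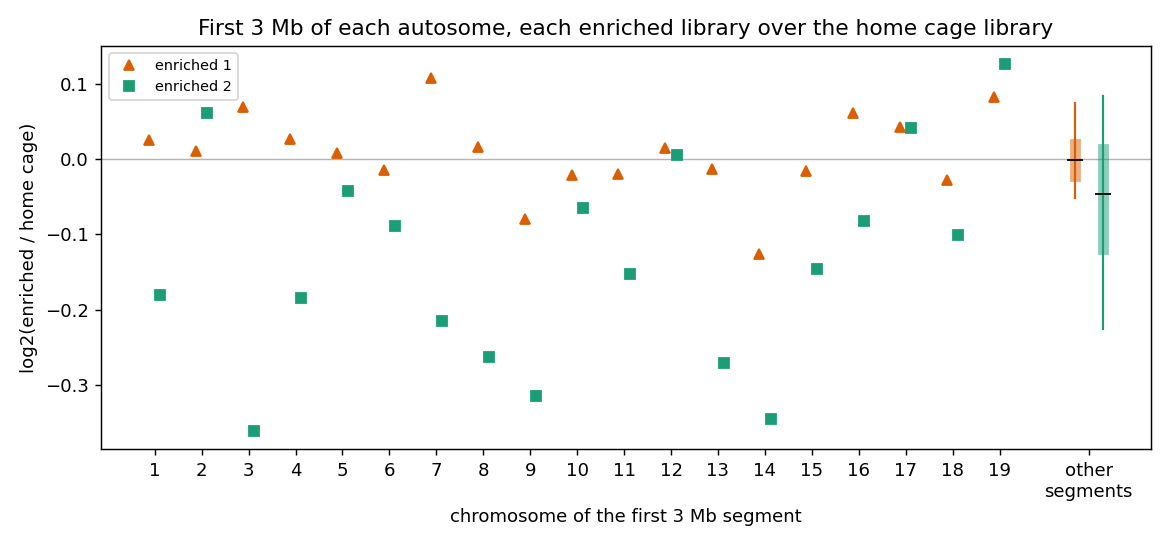
Log2 ratio of each enriched-cage library to the home cage library over the first 3 Mb of each autosome, and the other 774 segments at the right (dash, median; thick bar, 25th to 75th percentile; thin line, 5th to 95th percentile). Enriched replicate 2 (squares) lies below 0 on 15 chromosomes, enriched replicate 1 (triangles) stays between -0.13 and 0.11.

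Of the 225798 windows of 10 kb with enough fragments, 6 (0.00266%) passed in the same kind of fit. None of the 5012 proximal windows tested did, by limma with voom weights or by limma-trend. With voom weights the smallest adjusted p of a proximal window was 0.450. In that fit 285 (5.69%) had an unadjusted p under 0.05, beside 5.20% of all windows. By limma-trend the smallest adjusted p of a proximal window was 0.0686. There 369 (7.36%) had an unadjusted p under 0.05, beside 6.99% of all windows. Both enriched-cage libraries lay above the home cage in 28.7% of the proximal windows and below it in 36.2%, beside 31.5% and 37.0% of all windows.

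The windows named next have a mean of at least 50 fragments and both enriched-cage libraries on the same side of the home cage, and none passed. The window of chromosome 13 from base 3390001 had 2.52 in the home cage library, 2.13 in enriched replicate 1 and 0.957 in enriched replicate 2 (log2 -1.03 ± 0.35, SE, limma adjusted p = 0.775). A window over Peg10 on chromosome 6, from base 4760001, had 2.18, 1.32 and 1.18 (log2 -0.82 ± 0.31, adjusted p = 0.855). Peg10 is an imprinted gene derived from a retrotransposon and needed for the placenta. In the other direction, a window of chromosome 16 from base 4810001 had 1.60, 2.55 and 2.62 (log2 0.68 ± 0.40, adjusted p = 0.978). Windows from bases 5700001 and 5670001 in Zeb1, a repressor gene on chromosome 18, had 1.17, 1.63 and 1.81 and had 1.13, 1.48 and 1.68 (adjusted p = 0.983 and 0.993).

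The first 40 kb of chromosome 9 showed the widest gap between the home cage library and the enriched-cage libraries among the blocks described, with 1253, 1168 and 1076 fragments. The ratio to the home cage was 0.445 (0.410 to 0.482) in enriched replicate 1 and 0.628 (0.578 to 0.682) in enriched replicate 2. Both lay below the home cage by more than counting error, yet none of the block's 4 windows passed across the genome (log2 between -0.95 and -0.80, limma adjusted p = 0.998 each). How reads with several equally good positions were placed is not given in the sources used here. Fragment length also differed between the libraries, at 285, 207 and 238 bases. The part of either in this gap was not tested. For comparison, the ratios of the Sfi1 run were 0.986 (0.954 to 1.02) and 0.747 (0.719 to 0.776), those of the chromosome 4 block 1.02 (0.948 to 1.10) and 0.747 (0.684 to 0.817), and those of the chromosome 16 block 1.09 (1.01 to 1.18) and 0.759 (0.690 to 0.834). In these 3 blocks enriched replicate 2 alone was lower beyond counting error, and the home cage library has no replicate to show its own spread.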

How the data were processed

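H3K9me3 ChIP-seq coverage of 1 home cage and 2 enriched-cage hippocampus libraries was used. The authors deposited, per the labels' build list on mm10, 1 coverage track per library. Its signal values are scaled to the library; all are whole multiples of the value of a single fragment (within 0.01), so fragments could be recovered. Submitters' processing notes name CASAVA 1.7, BWA 0.7.12, MACS2 and TopHat2 without their roles; duplicate removal is not stated. Coverage was summed in 10 kb windows from base 3000001 on, converted to fragments and divided by the library median over autosomal windows. Segments of 3 Mb, and windows whose mean reached 20 fragments, were fitted with limma 3.58.1 (R 4.3.3) with voom weights, library medians as library sizes and Benjamini-Hochberg adjustment over all features, called at 0.05. With 1 home cage library, its spread was assumed to be that of the enriched-cage libraries. Other values came from Python 3.11.15 with numpy 2.4.6, pandas 2.3.3 and scipy 1.17.1.

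Members and lists were chosen with earlier results of these data known. Named windows are the 10 highest, the highest of each chromosome and, between cages, up to 5 per direction with the smallest unadjusted p, a mean of at least 50 fragments and both enriched-cage libraries on 1 side; genes are those that overlap or lie nearest. Promoters and the lectin genes were added after their values were seen. Planned features of the window sequences were not computed, since no genome sequence was used here. Genes were taken from RefSeq on GRCm38.p6.

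Simulated tables had 1 dispersion for all features and no difference in contrast between libraries, unlike the measured libraries. There the segment fit recovered all of the 1.5-fold changes at a dispersion of 0.005 and 43.3% of the 1.25-fold changes (793 segments). It made 4 false calls. The window fit recovered 1% of 2-fold and 74% of 4-fold changes at a dispersion of 0.02 (225798 windows), with 2 false calls. Recovery at the contrast of the measured libraries was not tested. The RNA libraries of the series were not used.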

Additional observations from a re-analysis of the deposited data

How the results depend on the processing

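Limits: the home cage has 1 library, signal over input was not measured, and enriched replicate 2 had the least contrast. Single windows are least certain in the home cage library, with a median of 23 fragments. No paired analysis was possible because the groups share fewer than 2 replicate numbers. Not run were the filters on undetermined bases and on unique 50-base words. Alternatives that leave out a chromosome, the 2 highest windows, the windows at 0 or a library in the descriptive values were chosen after seeing the data.

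The mean of the whole set, 1.13 in the home cage library, was 0.987 as a median, 1.02 without windows above the 99th percentile, 1.04 scaled to the mean, 1.09 in 50 kb windows, 1.16 without windows at 0, and 1.19, 1.09 and 1.10 without chromosome 14, 11 or 9, and 1.09 without the 2 highest windows. The enriched-cage mean of 1.08 was 0.973 as a median and 0.994 without windows above the 99th percentile, and between 1.02 and 1.14 without 1 enriched-cage replicate.

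The log2 ratio to the rest, 0.06 in the home cage library and 0.03 in the enriched-cage mean, turned to -0.0199 and -0.0400 as a median and to -0.0429 and -0.0601 without windows above the 99th percentile. In the home cage library it was 0.0975 without windows at 0, and 0.130, 0.0137 and 0.0273 without chromosome 14, 11 or 9, and 0.0129 without the 2 highest windows. In the enriched-cage mean it was 0.0968 without chromosome 14, and turned to -0.0164 without chromosome 11 and to -0.0161 without the 2 highest windows. Leaving out 1 enriched-cage replicate gave -0.0162 without enriched replicate 1 and 0.0703 without enriched replicate 2.

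The log2 ratio of the first 0.5 Mb to the following 2.5 Mb, 0.53 and 0.43, turned to -0.0800 and -0.0713 as a median over windows and to -0.0655 and -0.0909 without windows above the 99th percentile. With 1 Mb bins it was 0.31 and 0.25, without chromosome 11 0.29 and 0.21, and without the 2 highest windows 0.31 and 0.22. The enriched-cage value lay between 0.34 and 0.53 without 1 replicate. In the home cage library it was 0.61 without windows at 0 and 0.50 without chromosome 9.

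Of the 793 segments, 80 were called with 4 chromosome starts. This became 227 with 9 when scaled by the median ratio over the lower 75% of windows, 146 (73 higher and 73 lower) with 8 when scaled to the total, 189 (28 higher and 161 lower) with 9 with at most 2 fragments per start, and 367 of 2394 with 18 of 57 in 1 Mb segments. It became 0 with 0 with limma-trend and 0 with 0 without windows above the 99th percentile, where 440 segments had an unadjusted p under 0.05. The median log2 of the chromosome starts was -0.13, beside -0.0429 over all 793 segments. Without 1 enriched-cage replicate the median of the starts was between -0.145 and 0.0109, taken from plain log2 ratios with no fit and no test. It turned positive without enriched replicate 2.

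Of the windows, 6 were called; 21 were by limma-trend, 0 with a minimum of 50 fragments (1292 with an unadjusted p under 0.05) and 0 with no minimum (11385). The median log2 of the proximal windows, -0.07, was -0.19 with a minimum of 50 fragments and between -0.0951 and 0.00841 without 1 enriched-cage replicate. Over all windows tested the median was -0.0447, and -0.142 with the minimum of 50 fragments. Proximal windows called stayed at 0 under every alternative run. The causes of these shifts were not tested.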

Other observations

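Levels over some neuronal genes of the proximal regions are given here, picked after their values were seen and with no statement on a group. Gria4 on chromosome 9, an AMPA receptor subunit, had 0.963, 0.902 and 0.886, and Camk2b on chromosome 11, a calcium-dependent kinase subunit of synapses, had 0.697, 0.752 and 0.961. On chromosome 7, the AMPA receptor auxiliary subunit genes Cacng7 and Cacng8 had 0.907, 0.845 and 0.902 and had 0.965, 1.29 and 1.23. Npas4 on chromosome 19, a transcription factor gene induced by neuronal activity, had 1.00, 1.22 and 1.34 on 44.0, 112 and 80.6 fragments. The widely expressed nuclear RNA genes Malat1 and Neat1, also on chromosome 19, had 0.374, 0.654 and 0.638 and had 0.858, 0.873 and 0.791.

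The following immune genes were picked in the same way. Nlrp2 on chromosome 7 had 2.93, 3.26 and 1.95, Mefv on chromosome 16 had 2.58, 3.40 and 1.77, and Lilra5 on chromosome 7 had 1.75, 2.04 and 2.42. The caspase genes Casp1, Casp4 and Casp12 on chromosome 9 lay between 0.857 and 1.36. Each is given as a level, with no test.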
